A study of Mus musculus with 6 samples.

Results

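The small leucine-rich proteoglycans (SLRPs) are secreted matrix proteins built from a run of leucine-rich repeats, and 8 genes of the family were followed in the knockout of Ube3d: Dcn, Bgn and Aspn (class I), Lum, Fmod, Prelp and Omd (class II) and Ogn (class III). The members were chosen by gene symbol, and all 8 were found among the 24421 genes of the count table. Of these 8, 7 had enough reads to be tested, and Lum did not. The cells were 3T3-L1, a mouse embryonic fibroblast line in wide use as a model of the preadipocyte. The tested cells carried a knockout of Ube3d (KO, 3 libraries), and they were set against wild-type cells of the same line (WT, 3 libraries). Both genotypes were undifferentiated, in log-phase growth in serum-containing medium and below full confluence, with no other allele and no drug given in the labels. The sources used here give neither the part of Ube3d that was removed nor the number of knockout clones. The libraries are titled biological replicates, with no word on separate clones or thaws, so p-values measure the spread between these libraries.

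As background, the leucine-rich repeats of these proteins form a curved face that binds fibrillar collagen, and loss of decorin, lumican or fibromodulin is known to change the width and spacing of collagen fibrils in mice. Decorin and biglycan carry chondroitin or dermatan sulfate chains and also bind growth factors such as TGF-beta, while lumican and fibromodulin carry keratan sulfate. Asporin, the product of Aspn, carries a stretch of aspartate residues near its start and competes with decorin for collagen, and fibroblasts and the stroma of fat tissue are known sources of decorin and biglycan.

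Library totals ranged from 25267434 to 28042970 counts in KO and from 23767181 to 29389480 in WT, and the ribosomal precursor Rn45s took 9.68% to 10.2% of them in KO and 7.28% to 8.91% in WT. Without Rn45s each member kept its call or stayed uncalled. The target gene, listed under its older symbol Ube2cbp, had 56, 43 and 53 counts in KO libraries 1 to 3, against 145, 229 and 173 in WT libraries 1 to 3. It was lower in every KO library but still counted there (log2 fold change −1.86 with SE 0.15, edgeR adjusted p = 6.58e-18). Across the table, 7955 of 12947 tested genes (61.4%) differed between genotypes at an adjusted p under 0.05 in the edgeR quasi-likelihood test, 30.3% of the tested genes being higher and 31.2% lower in KO. Values below are CPM, read counts relative to the TMM-scaled library total, or RPKM, the same per kilobase of counted exon, with the mean ± SD over n = 3 libraries per genotype. Fold changes are KO over WT, with the SE on the log2 scale.

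Decorin and asporin, close relatives within class I, moved in opposite directions. Of the 7 tested members, 1 was higher in KO (Dcn; 30.3% of all tested genes were), 3 were lower (Aspn, Prelp and Ogn; 31.2% of all tested genes were) and 3 were not called (Bgn, Fmod and Omd). The called share, 4 of 7, was near the 61.4% of all tested genes, so the number of calls says nothing particular about the family. By size, 1 member (Dcn) was at least doubled, which was called for 4.43% of all tested genes, and 2 (Aspn and Prelp) were at least halved, which was called for 3.27%. The libraries of the genotypes did not overlap for 5 of the 7, against 64.3% of all tested genes. The members lie on chromosomes 1, 10, 13 and X, where the median log2 fold change over tested genes was −0.02, −0.06, −0.04 and −0.09, against 0.004 over all tested genes. It was further from 0 on chromosomes 2 (−0.24), 3 (0.30), 5 (0.19) and 12 (0.19), which hold no member. Fold changes of the list genes that lie there were not corrected for these shifts.

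Upstream windows of 250 bases are shown for the 3 members that fell and for Bgn, the most abundant member, so that genes that fell can be read beside one that was not called. They come from the RefSeq promoter table of GRCm38.p6, which matched 6 of the 8 members (not Dcn and Lum), and each ends at the base before the start in that table. For Aspn and Prelp this is also the start in the count table, while for Bgn and Ogn (and for Fmod and Omd, not shown) the count table begins the gene further downstream. Capitals mark matches on either strand to 5 motifs, the TATA box TATAAA, the CCAAT box CCAAT, the GC box GGGCGG, the AP-1 motif TGANTCA and the SMAD motif CAGACA.
Aspn, chr13:49544193-49544442, plus strand: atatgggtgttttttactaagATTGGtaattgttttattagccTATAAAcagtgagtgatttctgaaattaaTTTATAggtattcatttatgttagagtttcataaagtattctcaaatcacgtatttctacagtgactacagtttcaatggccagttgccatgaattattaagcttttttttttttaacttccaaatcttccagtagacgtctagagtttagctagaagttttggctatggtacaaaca
Ogn, chr13:49607765-49608014, plus strand: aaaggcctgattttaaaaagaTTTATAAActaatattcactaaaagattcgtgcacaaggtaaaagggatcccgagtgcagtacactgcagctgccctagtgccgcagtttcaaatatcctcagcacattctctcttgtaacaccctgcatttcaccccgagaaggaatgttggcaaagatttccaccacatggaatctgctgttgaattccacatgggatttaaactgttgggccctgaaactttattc
Prelp, chr1:133921402-133921651, minus strand: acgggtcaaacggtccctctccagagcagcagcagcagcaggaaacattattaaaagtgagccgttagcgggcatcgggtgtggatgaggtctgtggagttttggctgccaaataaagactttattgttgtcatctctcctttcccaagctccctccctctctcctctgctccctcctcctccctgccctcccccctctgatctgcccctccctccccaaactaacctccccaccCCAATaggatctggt
Bgn, chrX:73483351-73483600, plus strand: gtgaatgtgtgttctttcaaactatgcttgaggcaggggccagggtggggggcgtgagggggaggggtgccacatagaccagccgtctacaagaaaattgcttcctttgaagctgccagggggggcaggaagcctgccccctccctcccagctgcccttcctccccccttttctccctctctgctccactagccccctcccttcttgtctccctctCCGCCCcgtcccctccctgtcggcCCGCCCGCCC
The windows differ in base composition, with 30.0% G and C for Aspn, 42.0% for Ogn, 55.6% for Prelp and 64.4% for Bgn, against a median of 52.4% over 32851 windows of the same length. Fmod and Omd, also not called, had 51.2% and 38.4%, and their windows held no match to any of the motifs. Bgn thus does not stand for the uncalled members. TATAAA was found in the windows of Aspn and Ogn, in each case more than 170 bases before the RefSeq start, and in 12.4% of all windows. In Ogn its 2 matches are the overlapping strands of the same 8 bases. CCAAT was found in those of Aspn and Prelp and in 33.8% of all windows, and GGGCGG only in that of Bgn, with 3 matches of which 2 lie within 10 bases of the RefSeq start, and in 32.7% of all windows. Neither TGANTCA nor CAGACA was found in any of the 6 member windows, where 6.75% and 17.1% of all windows hold them. These matches describe letters and not bound sites.

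Decorin, which binds collagen fibrils and TGF-beta, rose in KO. Dcn (chromosome 10, 97479500 to 97518162, plus strand of GRCm38, 2084 counted exon bases) had 185, 188 and 186 CPM in KO libraries 1 to 3, against 35.6, 31.9 and 33.0 CPM in WT libraries 1 to 3. Every KO library lay well above every WT library, and the KO libraries were within a few percent of each other. The rise was 5.57-fold (log2 fold change 2.48 with SE 0.04, edgeR adjusted p = 9.85e-59), and of the 12947 tested genes 70 had a larger log2 fold change. Per kilobase, Dcn stood at 89.3 ± 0.734 RPKM in KO and 16.1 ± 0.907 RPKM in WT, which placed it at rank 660 of the tested genes by KO level and at rank 4310 by WT level.

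Biglycan, the closest relative of decorin and the main member in these cells, did not pass the test. Bgn (chromosome X, 73483635 to 73495936, plus strand) had 2266, 2313 and 2290.4 CPM in KO libraries 1 to 3, against 2252, 2183 and 2246 CPM in WT libraries 1 to 3. The KO libraries lay just above the WT libraries, without overlap but by less than the test called (log2 fold change 0.04 with SE 0.03, edgeR adjusted p = 0.215). The 95% interval of the log2 fold change was −0.02 to 0.10. With scaling factors taken from genes off chromosomes 2, 3, 5 and 12, whose medians are shifted, the log2 fold change was 0.063 and the call was higher (edgeR adjusted p = 0.0412). At 958 ± 9.98 RPKM in KO and 932 ± 15.9 RPKM in WT, Bgn ranked 56 of the tested genes by KO level and 57 by WT level.

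Asporin, which inhibits TGF-beta and binds collagen, fell in KO. Aspn (chromosome 13, 49544443 to 49567562, plus strand) had 5.97, 6.20 and 5.20 CPM in KO libraries 1 to 3, against 20.2, 18.1 and 20.7 CPM in WT libraries 1 to 3. All KO libraries were far below all WT libraries. The fall was 3.40-fold (log2 fold change −1.76 with SE 0.09, edgeR adjusted p = 4.12e-28), and 186 of the tested genes had a lower log2 fold change.

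**Figure D1:**
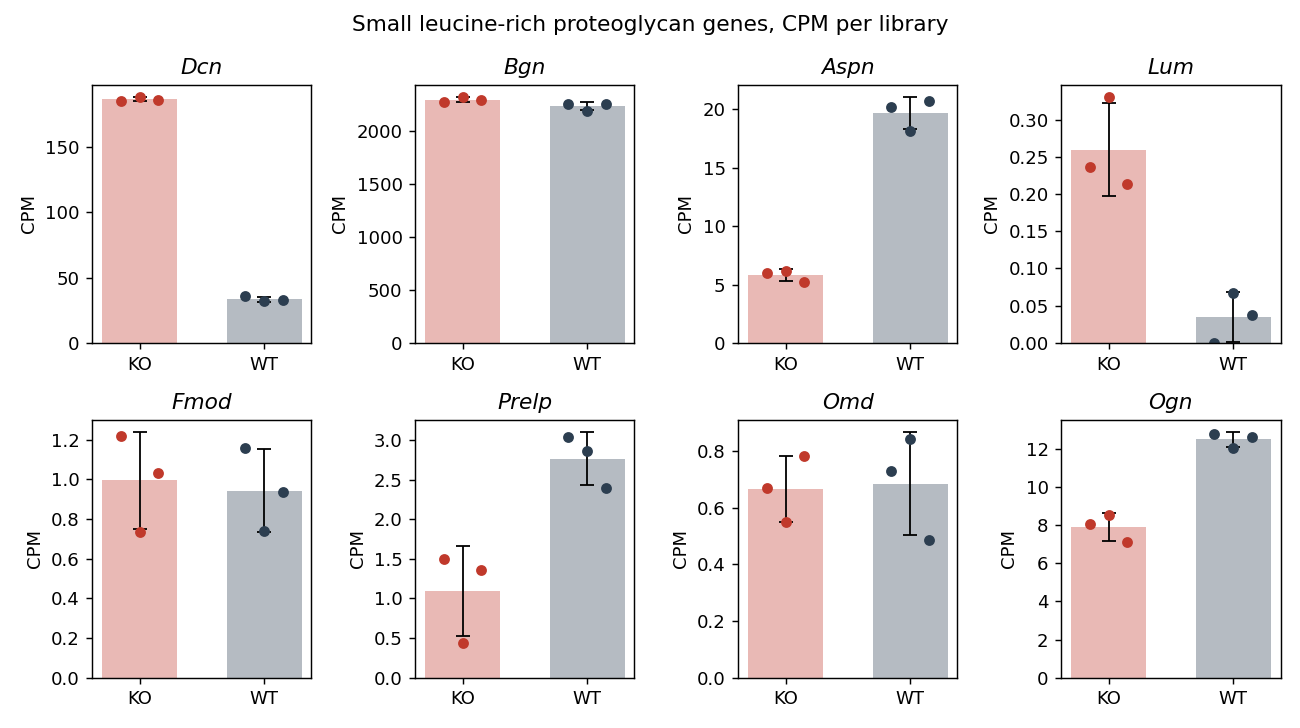
CPM of the 8 small leucine-rich proteoglycan genes, each panel on its own linear axis from 0, with KO on the left and WT on the right. Bars are means, error bars SD and points the 3 libraries of each genotype. Dcn stands near 186 CPM in KO and near 33.5 CPM in WT, Aspn and Ogn are lower in KO, and for Fmod and Omd the points of the genotypes overlap.

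Among class II members the only called change was a fall of Prelp, which encodes a heparin-binding protein that anchors basement membranes to collagen. Prelp (chromosome 1, 133910304 to 133921401, minus strand) had 1.49, 0.44 and 1.35 CPM in KO libraries 1 to 3, against 3.04, 2.86 and 2.39 CPM in WT libraries 1 to 3. Each KO library was below each WT library, and KO library 2, with 12 counts against 38 in both others, was the lowest. The fall was 2.52-fold (log2 fold change −1.34 with SE 0.24, edgeR adjusted p = 2.80e-06), and without KO library 2 the Prelp log2 fold change was −0.96 (edgeR adjusted p = 2.0e-04).

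Fmod encodes fibromodulin, which binds collagen and lysyl oxidase. Fmod (chromosome 1, 134037515 to 134048277, plus strand) had 1.22, 0.734 and 1.03 CPM in KO libraries 1 to 3, against 1.16, 0.741 and 0.934 CPM in WT libraries 1 to 3, and the groups overlapped (log2 fold change 0.09 with SE 0.29, edgeR adjusted p = 0.799, 95% interval −0.47 to 0.65). Omd encodes osteomodulin, a keratan sulfate proteoglycan best known from bone. Omd (chromosome 13, 49582747 to 49592609, plus strand) had 0.668, 0.55 and 0.783 CPM in KO libraries 1 to 3, against 0.728, 0.842 and 0.486 CPM in WT libraries 1 to 3, and the groups again overlapped (log2 fold change −0.04 with SE 0.33, edgeR adjusted p = 0.919, 95% interval −0.69 to 0.60). With at most 31 counts of Fmod and 25 of Omd in a library, a change inside these intervals was not excluded.

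Lumican, a keratan sulfate proteoglycan of cornea, skin and tendon, was close to absent from these cells. Lum (chromosome 10, 97565501 to 97572703, plus strand) had 6, 9 and 6 counts in KO libraries 1 to 3, against 0, 2 and 1 in WT libraries 1 to 3. The KO libraries were the higher ones, without overlap, but the gene was too low for the test. Over each group, 21 counts in KO and 3 in WT gave a ratio of 6.96 (exact binomial 95% interval 2.08 to 36.4, which covers counting error only).

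Ogn encodes mimecan, the only class III member followed here, and it fell. Ogn (chromosome 13, 49608071 to 49624500, plus strand) had 8.06, 8.55 and 7.12 CPM in KO libraries 1 to 3, against 12.8, 12.1 and 12.6 CPM in WT libraries 1 to 3. The groups did not overlap, and the fall of 1.58-fold (log2 fold change −0.66 with SE 0.09, edgeR adjusted p = 3.88e-09) was smaller than that of Aspn on the same chromosome, with 95% intervals of the log2 fold change of −0.84 to −0.48 for Ogn and −1.94 to −1.59 for Aspn. In bulk libraries, fewer cells that transcribe a gene and less of its RNA per cell cannot be told apart, which holds for each fall and rise given here.

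The order of the members by level, compared per kilobase of counted exon, differed between the genotypes below the top 2 places. In KO the order of mean RPKM was Bgn, Dcn, Ogn, Aspn, Omd, Fmod, Prelp and Lum, and in WT it was Bgn, Dcn, Aspn, Ogn, Prelp, Omd, Fmod and Lum. In KO the libraries of Omd and Fmod, of Fmod and Prelp and of Prelp and Lum overlapped, and the places above these, Omd below Aspn included, were separated. In WT the neighbours Omd and Fmod overlapped, and all others were separated. Ogn stood at 3.11 ± 0.286 RPKM in KO and 4.92 ± 0.155 RPKM in WT, and Aspn at 2.46 ± 0.224 RPKM in KO and 8.37 ± 0.576 RPKM in WT. The ratio of Ogn to Aspn was 1.26 ± 0.014 in KO libraries and 0.589 ± 0.025 in WT libraries. Ogn and Aspn thus changed places in the order of levels.

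The make-up of the family's RNA shifted from biglycan towards decorin. Summed over the 8 members, the level was 1055 ± 10.6 RPKM in KO and 963 ± 17.3 RPKM in WT. Bgn held 90.9% ± 0.063 of this sum in KO and 96.8% ± 0.107 in WT, and Dcn held 8.47% ± 0.025 in KO and 1.67% ± 0.072 in WT. The ratio of Bgn to Dcn was 10.7 ± 0.039 in KO libraries and 58.1 ± 2.51 in WT libraries. Without Bgn, the sum of the other members was 96.1 ± 0.84 RPKM in KO and 30.9 ± 1.52 RPKM in WT, of which Dcn held 93.0% in KO and 52.1% in WT, and Aspn 2.56% in KO and 27.1% in WT. The ratio of Dcn to Aspn was 36.5 ± 3.34 in KO libraries and 1.92 ± 0.11 in WT libraries. None of these shares or ratios was tested, since they are built from the members themselves.

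**Figure D2:**
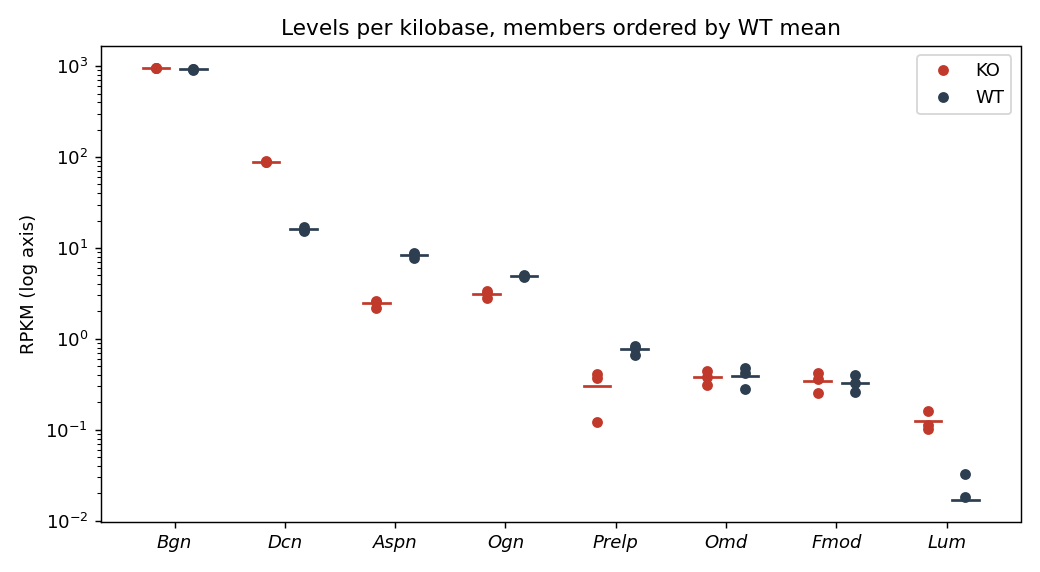
RPKM of each member on a log axis, ordered by the WT mean, with KO points left of WT points, 1 point per library and a line at the mean of 3. Bgn is near 958 RPKM in KO and 932 RPKM in WT, Dcn is higher in KO, and Aspn and Ogn change places. The WT library of Lum at 0 cannot be drawn on this axis.

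The members lie in groups of neighbouring genes, and members of the same group were not all called. Dcn and Lum are 47.3 kb apart on chromosome 10, followed by Kera and Epyc, which are family members of the cornea and cartilage. Kera had 0 counts in every library, and Epyc had 0 counts in KO and 5 in WT, all told. The nearest genes on the other side, 4930556N09Rik and Mir3966, and the nearest beyond Lum, 4930473O22Rik, also had 0 counts. The first tested gene next to Dcn was Btg1, 857 kb away, at 258 CPM in KO and 239 CPM in WT, which was slightly higher in KO (log2 fold change 0.11 with SE 0.03, edgeR adjusted p = 0.00127). No gene closer to Dcn was expressed enough to be tested, so whether genes beside Dcn moved with it could not be tested at this depth. Lum, the nearest of them with counts, was higher in every KO library.

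On chromosome 13 the genes Ecm2, Aspn, Omd and Ogn follow each other on the plus strand, with gaps of 11.7, 15.2 and 15.5 kb, and all lie inside the span of Cenpp, a centromere protein gene on the minus strand. No exon base of Cenpp overlaps theirs. Cenpp did not pass the test (log2 fold change −0.06 with SE 0.12, edgeR adjusted p = 0.667) at 5.53 ± 0.162 CPM in KO and 5.79 ± 0.409 CPM in WT. Ecm2, a further leucine-rich repeat gene, was at 0.677 ± 0.151 CPM in KO and 0.561 ± 0.148 CPM in WT (log2 fold change 0.30 with SE 0.35, edgeR adjusted p = 0.467). Beyond Ogn, the nucleolar gene Nol8 had a log2 fold change of 0.08 (edgeR adjusted p = 0.113) and the tRNA synthetase gene Iars fell slightly (log2 fold change −0.10 with SE 0.03, edgeR adjusted p = 0.00267). Aspn and Ogn thus fell within a run of genes in which Ecm2, Omd and Cenpp were not called.

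On chromosome 1, Prelp and Fmod are 116 kb apart on opposite strands. Optc, the class III member opticin, starts next to Prelp at a gap of 2.30 kb and had 0 counts in KO and 3 in WT. Mir6903, the next gene by start position on that side, had 0 counts. Beyond Fmod, Btg2 was not called (log2 fold change −0.12 with SE 0.12, edgeR adjusted p = 0.431), and Chit1 had 1 count in all libraries together. Next to Bgn on chromosome X, Haus7, a spindle gene, fell 1.33-fold (log2 fold change −0.41 with SE 0.06, edgeR adjusted p = 2.68e-09), Dusp9 was not called (log2 fold change −0.18 with SE 0.10, edgeR adjusted p = 0.128), and Trex2 and Atp2b3 were too low to test.

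**Figure D3:**
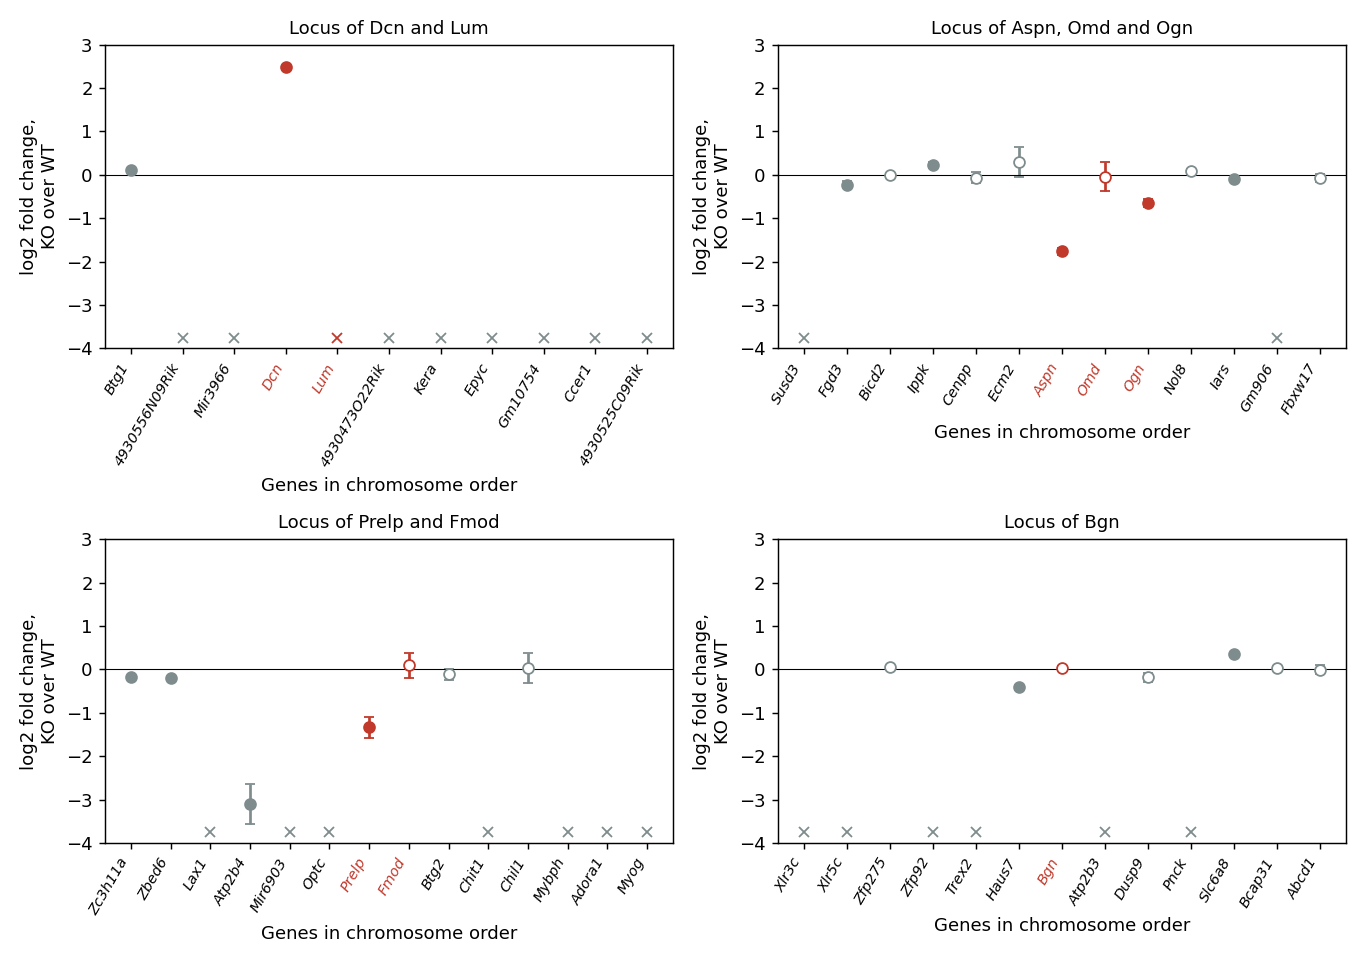
Log2 fold change of KO over WT ± SE for genes in chromosome order around the members (red) and their neighbours (grey), with filled points for genes at an adjusted p under 0.05 and crosses at the foot for genes too low to test. Dcn stands alone at 2.48 with no tested gene beside it. Aspn and Ogn lie below 0, and Ecm2 and Omd beside them have wide error bars (SE 0.35 and 0.33).

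The 9 other genes of the family added little RNA beside Bgn. Per kilobase, though, Tsku was at 7.17 RPKM in KO and 7.47 RPKM in WT, and Podnl1 at 5.18 and 5.99 RPKM. Both stood above Ogn (3.11 RPKM in KO and 4.92 RPKM in WT) in each genotype, and above Aspn in KO but not in WT. Summed over the 9, the level was 30.7 to 34.4 CPM in KO libraries and 32.4 to 37.4 CPM in WT libraries. Of 4 tested, 0 were higher and 1 was lower. Podnl1, a podocan relative, was at 10.8 ± 0.795 CPM in KO and 12.5 ± 1.76 CPM in WT (log2 fold change −0.20 with SE 0.09, edgeR adjusted p = 0.0463), a call that was lost with DESeq2 and with 7 other alternatives, and the Podnl1 log2 fold change was −0.093 without WT library 1. Tsku, which encodes tsukushi, was at 20.1 ± 0.972 CPM in KO and 20.9 ± 1.77 CPM in WT (log2 fold change −0.06 with SE 0.07, edgeR adjusted p = 0.449), and Chad, which encodes the cartilage protein chondroadherin, at 0.772 ± 0.262 CPM in KO and 1.01 ± 0.223 CPM in WT (log2 fold change −0.39 with SE 0.30, edgeR adjusted p = 0.249). Nyx had 12 counts in KO and 3 in WT (ratio 3.97, exact binomial 95% interval 1.07 to 21.9), and Podn had 9 in KO and 2 in WT (ratio 4.47, interval 0.926 to 42.5).

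Of the collagens that these proteins coat, more fell than rose. Of 13 listed collagen genes 11 were tested, and 7 fell and 4 rose, with a median log2 fold change of −0.55 against 0.004 over all tested genes, of which 31.2% fell and 30.3% rose. Col12a1, a fibril-associated collagen, had 5.62, 5.43 and 6.05 CPM in KO libraries 1 to 3, against 106, 96.6 and 102 CPM in WT libraries 1 to 3, a fall of 17.8-fold (log2 fold change −4.15, SE 0.06). Col1a1 was at 706 ± 12.6 CPM in KO and 1602 ± 68.2 CPM in WT, Col5a2 fell by 0.89 and Col5a1 fell by 0.72 on the log2 scale. These fibril-forming chains were lower in KO, unlike Dcn. Col11a1, a further fibril-forming chain, rose, at 3.90 CPM in KO and 2.35 CPM in WT (log2 fold change 0.73, SE 0.16). The 3 collagen VI chains on the list, which form beaded filaments that bind decorin and biglycan, rose too. Their log2 fold changes ran from 0.07 for Col6a2 (SE 0.03, edgeR adjusted p = 0.0292) to 0.40 for Col6a3. With each library left out in turn, 3 to 4 of the listed collagens were higher.

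Enzymes that build the linkage region and the chondroitin or dermatan sulfate chains of decorin and biglycan were more often higher than lower. Of 23 listed genes 18 were tested, and 10 rose, 2 fell and 6 were not called (median log2 fold change 0.16). Over all tested genes 30.3% rose and 31.2% fell, and the share called, 12 of 18, was near the 61.4% of all tested genes. B3gat3, which completes the linkage tetrasaccharide, was at 40.0 ± 3.16 CPM in KO and 21.3 ± 1.42 CPM in WT (log2 fold change 0.91, SE 0.06). Chst11, a 4-O-sulfotransferase of chondroitin, had 53.8, 56.4 and 54.1 CPM in KO libraries 1 to 3, against 30.5, 30.1 and 32.2 CPM in WT libraries 1 to 3 and rose 1.77-fold (log2 fold change 0.83, SE 0.05). Csgalnact1, which starts the chondroitin chain, rose by 0.48 on the log2 scale. The 2 genes that fell were Dse and Chst14. Dse, the epimerase that turns glucuronic into iduronic acid, was at 72.3 ± 0.56 CPM in KO and 95.6 ± 2.41 CPM in WT (log2 fold change −0.40, SE 0.04), and Chst14, the dermatan 4-O-sulfotransferase, was at 26.6 ± 1.09 CPM in KO and 35.7 ± 2.06 CPM in WT (log2 fold change −0.42, SE 0.06). Other genes of dermatan sulfate did not share this: Dsel, a second epimerase gene, was not called (log2 fold change 0.03 with SE 0.05, edgeR adjusted p = 0.604), and Ust, a uronyl 2-O-sulfotransferase gene, rose (log2 fold change 0.43 with SE 0.08, edgeR adjusted p = 2.16e-06). Xylt1 had 0 counts, and Xylt2, the other xylosyltransferase that starts every chain, was at 23.0 ± 0.703 CPM in KO and 18.4 ± 0.478 CPM in WT.

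For keratan sulfate, the chain of lumican and fibromodulin, 8 of 11 listed genes were tested, and 4 rose and 1 fell, all by less than 0.4 on the log2 scale. The share called, 5 of 8, was near the 61.4% of all tested genes, and the 4 rises became 2 without KO library 1, 1 without KO library 3 and 1 without WT library 2. Fut8, a core fucosyltransferase, rose by 0.20 on the log2 scale, where the median over tested genes of its chromosome, 12, was 0.19. Chst1 and Slc35d2, a keratan sulfotransferase gene and a nucleotide sugar transporter gene, rose by 0.18 and 0.28. The galactosyltransferase gene B4galt1, which fell, was at 124 ± 4.27 CPM in KO and 134 ± 4.03 CPM in WT. With DESeq2, 2 of the list were higher.

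A list of 14 genes held proteases known to cut these proteoglycans or their partners and Pcolce, which encodes an enhancer of procollagen cleavage and is no protease itself. Of these 12 were tested, and 4 rose (Mmp9, Mmp13, Mmp14 and Pcolce) and 6 fell (median log2 fold change −0.21), where 30.3% of all tested genes rose and 31.2% fell. Adamts5 had 9.28, 9.61 and 9.86 CPM in KO libraries 1 to 3, against 37.0, 34.5 and 38.0 CPM in WT libraries 1 to 3, without overlap (log2 fold change −1.93, SE 0.07). Adamts1, a related aggrecanase, was at 43.7 ± 0.361 CPM in KO and 112 ± 1.19 CPM in WT, and Ctsk, which encodes cathepsin K, at 2.56 ± 0.644 CPM in KO and 8.79 ± 0.415 CPM in WT. Mmp9, a gelatinase, went the other way, at 6.75 ± 0.877 CPM in KO and 0.847 ± 0.261 CPM in WT (log2 fold change 3.00, SE 0.18). Bmp1, the proteinase that removes the propeptide of biglycan, was lower, at 49.0 CPM in KO and 77.9 CPM in WT.

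Of 15 genes for receptors that soluble decorin or biglycan is reported to bind, 13 were tested, with 5 higher and 4 lower (median log2 fold change 0.02), shares near the 30.3% and 31.2% of all tested genes. Egfr, a decorin receptor, was at 0.411 ± 0.171 CPM in KO and 2.84 ± 0.272 CPM in WT (log2 fold change −2.78, SE 0.27). Lrp1, which takes decorin into the cell, was at 1470.5 ± 67.5 CPM in KO and 1033 ± 35.6 CPM in WT (log2 fold change 0.51, SE 0.03), and Tlr4, a biglycan receptor, at 41.4 ± 1.28 CPM in KO and 29.2 ± 1.09 CPM in WT (log2 fold change 0.51, SE 0.05). Igf1r rose by 0.26 on the log2 scale. Of 13 growth factors reported to bind members, 8 were tested, with 4 higher and 3 lower (median log2 fold change −0.06), where 30.3% of all tested genes were higher and 31.2% lower. Ctgf and Wisp1, genes of the CCN matricellular family, were lower, with Ctgf at 1.77 CPM in KO and 9.83 CPM in WT and Wisp1 at 27.9 CPM in KO and 49.7 CPM in WT. Igf1 was at 3.24 CPM in KO and 6.42 CPM in WT, and Pdgfa rose by 0.45 on the log2 scale.

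**Figure D4:**
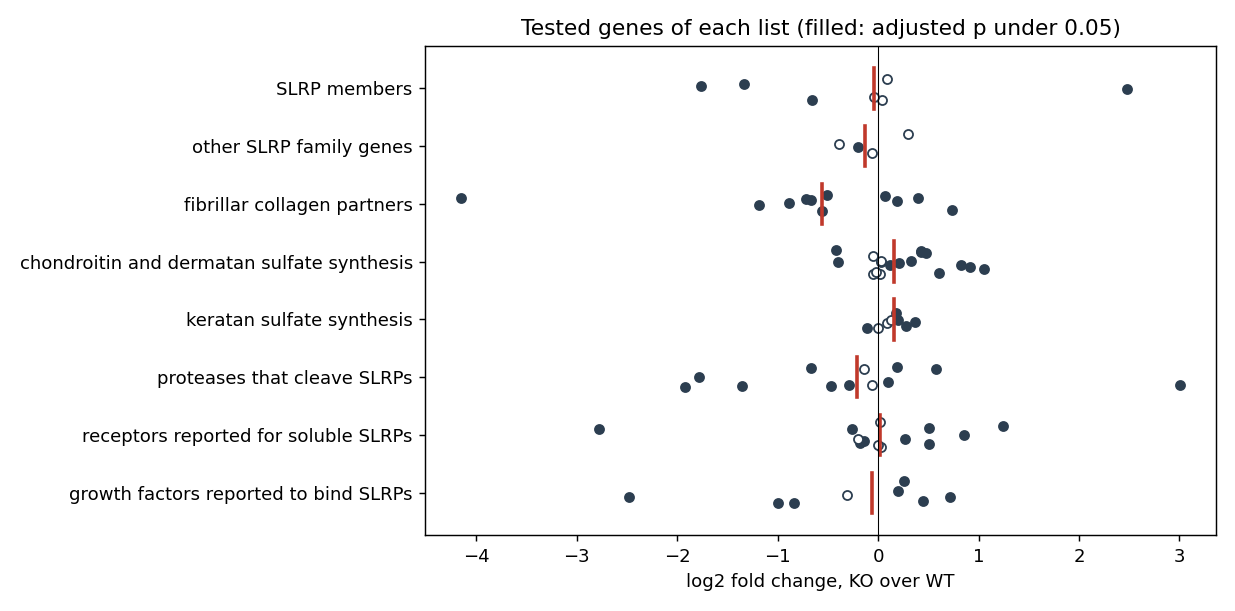
Log2 fold change of KO over WT for the tested genes of each list, 1 point per gene, filled at an adjusted p under 0.05, with a red line at the list median. The protease row includes Pcolce. Points are spread vertically only to keep them apart. Dcn is the highest family member at 2.48 and Aspn the lowest at −1.76, and Col12a1 is the lowest point of all at −4.15.

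By a fixed measure, the distance between log2 CPM profiles over the 6 libraries after centring each gene, the 3 genes most like Dcn among 11805 genes with at least 1 CPM were Fgd4 (2.39), Clip4 (2.32) and D330050G23Rik (2.50), with log2 fold changes in brackets. For Aspn they were Tmem176b (−1.73), Tmem176a (−1.86) and Timp3 (−1.68), and for Prelp 1500011K16Rik (−1.24), Cxxc4 (−1.62) and Ctsk (−1.78). With 2 genotypes, such likeness is mostly a like fold change. Distances were 0.25 for Dcn to Fgd4, 0.21 for Aspn to Tmem176b and 0.73 for Prelp to 1500011K16Rik.

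Markers of the labelled cell type were present, and several moved with genotype, the value in brackets being the log2 fold change. Of all tested genes 30.3% were higher and 31.2% lower in KO. The lists other than the fibroblast list had too few tested markers to set against these shares. All 10 fibroblast and preadipocyte markers were tested, of which 1 rose (Dlk1, 1.12) and 8 fell, Fbn1 the most (−2.58), with Vim not called. Their summed level was 11728 to 12107 CPM in KO libraries and 14425 to 14915 CPM in WT libraries. Col1a1, Col1a2 and Col3a1, all lower, are also on the collagen list and are not separate falls. Col1a2 was at 1855 CPM in KO and 2957 CPM in WT, and Col1a1 at 706 and 1602 CPM. Of 7 chondrocyte markers 3 were tested and 2 rose, Acan (3.02) and Sox9 (0.39), with Col9a1 and Matn1 at 0 in every library. Their summed levels were 382.6 to 392.04 CPM in KO and 264 to 269.7 CPM in WT, mostly Sox9, at 341 CPM in KO and 261 CPM in WT. Of 7 osteoblast markers 2 were tested and both rose, Spp1 (0.77) and Runx2 (0.14), while Sp7, Alpl, Ibsp and Bglap were below 0.2 CPM in both genotypes. Their summed levels were 760.1 to 775 CPM in KO and 468.5 to 493 CPM in WT, mostly Spp1, at 665 CPM in KO and 390 CPM in WT. Of 6 tendon markers 3 were tested, with Egr1 higher (0.79), Mkx lower (−0.61), Scx not called and Thbs4 at 0. Summed levels were 81.2 to 83.4 CPM in KO and 57.9 to 60.3 CPM in WT. Most of this sum was Egr1, at 70.4 CPM in KO and 40.7 CPM in WT, while Mkx was at 11.1 CPM in KO and 17.1 CPM in WT. Of 7 adipocyte markers 1 was tested, Fabp4, which fell (−1.83), with Lep and Retn at 0 and summed levels of 0.904 to 1.21 CPM in KO and 3.47 to 3.92 CPM in WT. Of 6 leukocyte markers 3 were tested, with Cd68 higher and Lyz2 lower (a call lost without KO library 3 or WT library 3), Adgre1 at 0 and sums of 6.68 to 7.3 CPM in KO and 5.35 to 6.67 CPM in WT. Endothelial markers summed to 1.42 to 2.53 CPM in KO and 0.60 to 1.08 CPM in WT, with 1 of 5 tested and higher (Vwf, 2.13). Epithelial markers summed to at most 0.623 CPM in KO and 0.505 CPM in WT, with none of 5 tested and Epcam and Krt18 at 0. The part of these shifts in the changes of the members was not tested.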

How the data were processed

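Per the labels' protocols, RNA of 6 samples went through rRNA depletion and a stranded kit. The deposited table holds the authors' raw counts for each gene, beside its exon positions and counted length. STAR 2.6.1d, featureCounts 1.6.3 and mm10 or GRCm38 are named in the submitters' processing notes. The sources used here do not state how strand and multiply aligned reads were handled. Deposited counts for regions downstream of genes carry no names and were not used here.

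Groups and replicate numbers came from the sample titles. Libraries of the same genotype differed by more than sampling noise on average over genes (chi-square per gene 2.05 to 6.5). This mean includes Rn45s, which took 7.28% to 8.91% of the WT libraries, so it is not the excess of a typical gene. The whole table was fitted with edgeR 4.0.16 in R 4.3.3 (quasi-likelihood F test, robust, TMM). Genes were filtered with filterByExpr at its defaults, a minimum count of 10 and a minimum total of 15. The minimum count was not asked of every library. Atp2b4 (3, 1 and 5 counts in KO) and Vwf (6, 10 and 7 counts in WT) passed through the genotype where they were higher. The p-values were two-sided and Benjamini-Hochberg adjusted over 12947 genes, with calls under 0.05. The fit was tested on simulated data. Each SE came from the log2 fold change divided by the root of F. Alternatives were RLE factors, other filters, DESeq2 1.42.0, limma-voom 3.58.1, a replicate block, other library compositions and each library left out. Python 3.11.15, pandas 2.3.3 and matplotlib 3.10.9 made tables and plots.

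The members, lists and tests were chosen with earlier results of these data known. Named by rule were all members, the target gene, the other family genes, at most 4 genes per list, by lowest adjusted p, the nearest 2 genes on each side of a locus and the 3 most similar profiles of members changed at least 2-fold. Btg1, Col11a1, Col6a2, Col6a3, Chst14, Dsel, Ust, Pcolce, Mmp13, Mmp14, Xylt1, Xylt2, Bmp1, Atp2b4, Slc6a8, Chst3 and P2rx7, and markers named for a level at or near 0 or for no call, were chosen after their values were seen. Lists were described by counts and medians, with no set test.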

Additional observations from a re-analysis of the deposited data

How the results depend on the processing

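The calls of Dcn, Aspn, Ogn, Prelp and Ube3d kept their direction and their side of the threshold under all 14 alternatives, with log2 fold changes of 2.44 to 2.52 for Dcn, −1.83 to −1.69 for Aspn, −0.72 to −0.59 for Ogn and −1.61 to −0.96 for Prelp. Bgn was called with scaling factors from genes off chromosomes 2, 3, 5 and 12 (0.063), and the count of members higher was then 2. It was also 2 with no count filter, where Lum was tested (log2 fold change 2.64, SE 0.90, edgeR adjusted p = 0.00917). Omd was not tested at 1 CPM in 3 libraries. Leaving out each library in turn, the uncalled members Fmod (−0.074 to 0.26) and Omd (−0.24 to 0.15) changed sign, and the calls of members stayed at 1 higher and 3 lower. Ranges over these fits for list counts were 0 to 1 other family genes lower, 1 to 4 keratan sulfate genes higher, and 0 to 1 leukocyte markers lower. Further ranges for genes higher were 3 to 4 collagens, 9 to 10 chondroitin or dermatan sulfate genes and 2 to 3 chondrocyte markers. Proteases ranged over 3 to 4 higher and 6 to 7 lower, receptors over 4 to 5 each way and growth factors over 3 to 4 each way. The sign of the uncalled Csf1r varied (−0.068 to 0.084). The Csf1r log2 fold change was also negative with no count filter (−0.0081) and with limma-voom (−0.0039). With DESeq2, 0 other family genes were lower, 2 keratan sulfate genes higher and 0 leukocyte markers lower. At 1 CPM in 3 libraries, 0 other family genes and 0 leukocyte markers were lower, 3 receptor genes higher and 0 endothelial markers higher. The cause of these changes was not tested, except that a stricter filter tests fewer genes. Of 16 ranks (8 members in each genotype), 16 were the same with TPM, and 12 with CPM, which ignores length.

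The labels do not say whether the replicate numbers pair the libraries. Deviations from the group means correlated at −0.03 in each same-numbered pair. No effect shared by number was thus seen, which cannot tell whether cultures were handled together. With the replicate number as a block, the member calls stayed at 1 higher and 3 lower, with Prelp at −1.36. Depth limits what can be said of Lum, Fmod and Omd, and counting error alone is covered by the intervals of low counts.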

Other observations

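Some genes next to or working with the family stood out and were chosen after their values were seen. Atp2b4, a plasma membrane calcium pump gene with a gap of 157 kb to Prelp on chromosome 1, was at 0.111 ± 0.0709 CPM in KO and 0.991 ± 0.114 CPM in WT (log2 fold change −3.10 with SE 0.45, edgeR adjusted p = 1.51e-08), from 9 counts in KO and 79 in WT over all libraries. Mir6903 lies inside Atp2b4, and Optc, too low to test, lies between it and Prelp. Slc6a8, a creatine transporter gene near Bgn on chromosome X, was at 249 ± 3.06 CPM in KO and 196 ± 5.45 CPM in WT (log2 fold change 0.34 with SE 0.03, edgeR adjusted p = 2.52e-16). Chst3, the chondroitin 6-O-sulfotransferase, was at 4.80 ± 0.524 CPM in KO and 2.30 ± 0.296 CPM in WT (log2 fold change 1.05 with SE 0.16, edgeR adjusted p = 1.94e-08). P2rx7, a purine receptor reported to act with biglycan, was at 0.98 ± 0.111 CPM in KO and 0.394 ± 0.272 CPM in WT (log2 fold change 1.24 with SE 0.35, edgeR adjusted p = 0.00172).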
